A study of Mus musculus with 6 samples.

Results

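The 10 S100a genes described here are S100a1, S100a3, S100a6, S100a8, S100a9, S100a10, S100a11, S100a13, S100a14 and S100a16, the listed S100a genes of the epidermal differentiation complex on mouse chromosome 3. They were found on the array by gene symbol, and they are 10 of the 21364 symbols that its probes could be given. Epidermis was taken from the dorsal skin of embryos at embryonic day 16 (E16) on a mixed background, labelled 129SvEx:C57BL/6, by dispase digestion and peeling. Each of 6 arrays compared a knockout with a wild-type littermate, each in its own dye. The knockouts were Sox4 cKO, Sox11 cKO and dcKO (Sox4 and Sox11 both deleted), with 2 arrays each. Floxed alleles were deleted by Krt14-Cre, brought in from FVB/N mice per the methods and active in keratinocytes, so other cells of the sample kept both genes. The study's methods describe breeding stock that also lacked Sox12, and the labels do not say which embryos carried that allele or which alleles the wild-type littermates had. The number of arrays limits the precision of every value.

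S100 proteins are small proteins with a pair of calcium-binding EF-hand motifs, and most work as dimers that dock onto a target when calcium binds. Several serve in keratinocytes: they join annexins at the plasma membrane, are built into the cornified envelope by transglutaminases, or are released as signals from stressed skin. Their genes lie at both edges of the epidermal differentiation complex, which also holds the loricrin, involucrin, small proline-rich and late cornified envelope genes and the fused S100 genes such as filaggrin. Sox4 and Sox11 are related transcription factors of embryonic tissues with an HMG box that binds DNA.

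No S100a gene passed an adjusted p of 0.05 in any knockout, while 21 of 45 envelope and other genes that lie between them on the chromosome rose in dcKO. Over all probes 0.83% passed in dcKO (0.523% higher), 0.00539% with Sox4 alone deleted and 0% with Sox11 alone deleted. With so few passing, 0 of 10 does not set the S100a genes apart from other probes. S100a6 had the largest value of the 10 in dcKO, at −0.88 on the log2 scale (95% confidence interval −1.41 to −0.35, adjusted p = 0.208). S100a9 had the largest in Sox4 cKO, at 0.74 with a standard error of 0.16 (adjusted p = 0.715). S100a10, S100a11, S100a13, S100a14 and S100a16 stayed within −0.29 and 0.29 in all 3 genotypes. All values of this kind are log2(knockout/wild type), so that 1 is a doubling, and the fold change of a genotype is the mean of its 2 arrays. Intervals and adjusted p-values are from the limma fit over all probes, with Benjamini-Hochberg adjustment, and the intervals themselves are not adjusted.

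The promoter windows of S100a6, S100a9 and S100a1, which had the largest values, and of S100a8, S100a11 and S100a16, in which a motif was found, are given here so that the bases before each start can be seen. RefSeq (mouse build GRCm38.p6) gave a start for 8 of the 10 genes, with 12 windows of 250 bases upstream in all. None was listed for S100a10 or S100a14. Each sequence runs 5′ to 3′ on the gene's own strand and ends at the base before the start, with capitals for motif matches. The S100a6 window (chr3:90612644-90612893, plus strand), the S100a9 window (chr3:90695722-90695971, minus strand) and the S100a1 window (chr3:90514331-90514580, minus strand) held none of the motifs searched.
S100a6: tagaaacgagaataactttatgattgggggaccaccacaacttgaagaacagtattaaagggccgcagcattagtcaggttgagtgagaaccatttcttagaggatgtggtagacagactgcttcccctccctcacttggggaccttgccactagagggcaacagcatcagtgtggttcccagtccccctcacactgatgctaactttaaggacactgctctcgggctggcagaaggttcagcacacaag
S100a9: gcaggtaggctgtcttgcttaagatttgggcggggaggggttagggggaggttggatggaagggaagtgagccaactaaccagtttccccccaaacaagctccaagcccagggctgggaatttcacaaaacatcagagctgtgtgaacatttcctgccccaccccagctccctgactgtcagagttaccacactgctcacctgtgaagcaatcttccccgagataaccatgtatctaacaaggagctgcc
S100a1: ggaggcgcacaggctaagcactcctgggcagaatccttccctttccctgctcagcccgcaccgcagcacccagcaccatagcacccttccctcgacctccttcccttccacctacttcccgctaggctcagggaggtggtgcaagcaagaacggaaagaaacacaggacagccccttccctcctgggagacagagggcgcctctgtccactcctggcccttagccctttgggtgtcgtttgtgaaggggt
In the S100a8 window (chr3:90668821-90669070, plus strand) the capitals mark TATAAA, 30 to 25 bases before the start. In the S100a11 window (chr3:93520246-93520495, plus strand) they mark 2 copies of the AP-1 motif, 136 to 130 and 38 to 32 bases before the start. The second S100a16 start (window chr3:90540896-90541145, plus strand) had an AP-1 match 192 to 186 bases before it and, 96 to 91 bases before it, the Sox core AACAAT on the opposite strand, which reads ATTGTT here.
S100a8: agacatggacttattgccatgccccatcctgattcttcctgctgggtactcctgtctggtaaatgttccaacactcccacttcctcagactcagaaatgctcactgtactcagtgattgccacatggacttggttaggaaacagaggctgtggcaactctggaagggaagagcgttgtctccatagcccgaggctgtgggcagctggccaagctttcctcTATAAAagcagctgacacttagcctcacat
S100a11: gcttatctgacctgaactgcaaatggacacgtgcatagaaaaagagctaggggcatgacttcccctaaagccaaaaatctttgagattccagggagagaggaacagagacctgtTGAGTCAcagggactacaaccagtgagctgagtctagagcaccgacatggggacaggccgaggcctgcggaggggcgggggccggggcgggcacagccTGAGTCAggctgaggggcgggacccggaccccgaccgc
S100a16: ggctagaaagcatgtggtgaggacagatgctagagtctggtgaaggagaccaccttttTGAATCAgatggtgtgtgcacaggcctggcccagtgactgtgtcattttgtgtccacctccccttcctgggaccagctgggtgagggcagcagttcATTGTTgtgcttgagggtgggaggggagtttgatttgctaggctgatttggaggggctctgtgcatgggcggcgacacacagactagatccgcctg
All motifs were searched on both strands. The Sox core was AACAAT, with ACAAAG as its second form. The AP-1 motif was TGANTCA, and the TATA box was TATAAA. They do not overlap each other in these windows. Of all 32851 RefSeq promoter windows of the same length, 9.42% held AACAAT, 16.5% ACAAAG, 6.75% TGANTCA and 12.4% TATAAA. Among the 12 windows of the S100a genes these motifs were in 1, 1, 2 and 2, the remaining windows with a match being those of S100a3 (ACAAAG in 1, TATAAA in another). The S100a1 and S100a13 windows share 104 bases on opposite strands, since these genes start close together and run apart. A match of letters is a description and not a site, and binding was not measured on these arrays. In other experiments the study mapped binding of tagged SOX11 and SOX4 in keratinocytes by chromatin immunoprecipitation (ChIP) with sequencing. It names S100a10 among genes with a high SOX11 peak that ChIP with PCR also found enriched in epidermal cells of SOX11-induced pups.

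The weaker of the Sox4 probes fell at least 3.05-fold when Sox4 alone was deleted (adjusted p = 0.0289). It fell 3.0-fold in the double knockout (adjusted p = 0.00227) and stood at 0.08 in Sox11 cKO. The brighter Sox4 probe read −0.42, −0.82 and 0.12 in Sox4 cKO, dcKO and Sox11 cKO. The Sox11 probes lay near background in wild type too and could not check the Sox11 genotype. The study reports that loss of Sox4 and Sox11 was checked by RT-qPCR in the epidermal RNA before it went on the arrays. All 8 keratinocyte genes listed as epidermal markers, Krt5 and Krt14 among them, were well above background in all 12 channels (6 knockout and 6 wild-type samples). The samples of the Sox11 cKO arrays stood apart in both channels, wild type included. In these 4 channels the late envelope genes Lce1b and Kprp were not well above background in any, with levels (log2 channel signal after normalization) of 4.69 to 5.27 and 4.87 to 5.23. In the other 8 channels their levels were 8.33 to 14.18 and 8.95 to 13.06. The periderm keratin Krt4 went the other way, at 8.33 to 10.76 against 5.80 to 8.26.

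The S100a genes shared that split in part. Below the other samples lay S100a13 at 8.05 to 8.23 against 8.34 to 8.87, S100a14 at 13.68 to 13.99 against 14.17 to 14.53, and S100a16 at 13.30 to 13.47 against 13.53 to 13.95. They are 3 of the 8 S100a genes that were well above background in all 12 channels, and none of the 8 lay above. Of all 18110 such probes, 6.06% lay below in the same way and 7.26% above. This comparison was chosen after the levels had been seen and carries no test, and what set these samples apart was not tested. Comparisons of dcKO or Sox4 cKO with Sox11 cKO rest on these arrays.

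**Figure D1:**
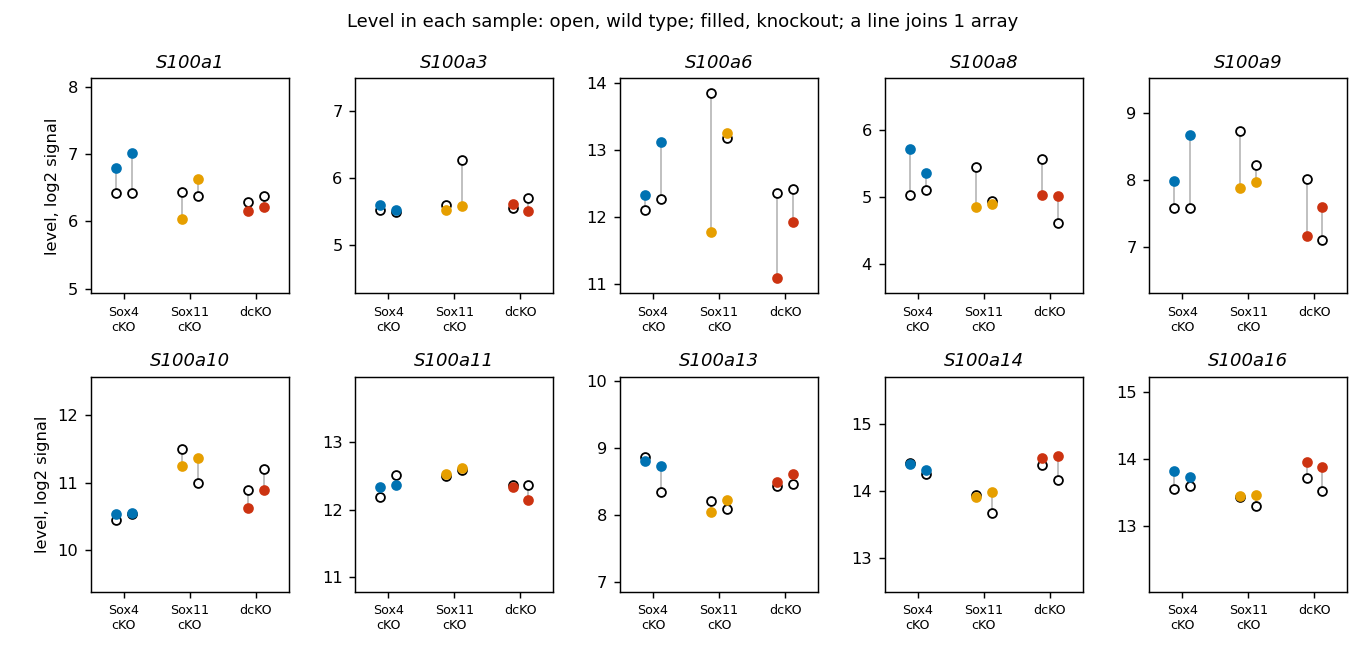
Level of each S100a gene (vertical axis, log2 channel signal after loess and between-array normalization) in the knockout (filled) and wild-type (open) sample of each array, grouped by genotype on the horizontal axis, with replicate 1 to the left of replicate 2 and a line joining the samples of 1 array. S100a6 and S100a9 spread most among wild types (ranges of 1.73 and 1.62), S100a1 least (0.15), and the 4 samples of the Sox11 cKO arrays are the lowest for S100a13, S100a14 and S100a16.

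S100a6 (calcyclin), which binds annexins and the calcyclin-binding protein and is found in cycling cells, varied most. Its log2(knockout/wild type) was 0.22 and 0.85 on Sox4 cKO replicates 1 and 2, −2.06 and 0.07 on the Sox11 cKO replicates, and −1.28 and −0.48 on the dcKO replicates. It was thus higher on both Sox4 cKO arrays and lower on both dcKO arrays, while the Sox11 cKO arrays fell on opposite sides of 0. The mean was 0.53 (95% confidence interval 0.00 to 1.07, adjusted p = 0.808) in Sox4 cKO, −0.99 (−1.53 to −0.46, adjusted p = 0.695) in Sox11 cKO and −0.88 in dcKO, as above. The arrays of a genotype differed by an SD of 0.45, 1.51 and 0.56 (n = 2 each, dye difference included). Wild-type levels alone ran from 12.11 to 13.84, a range of 1.73, which is wider than the mean change in any genotype. The wild types of the Sox11 cKO arrays, at 13.84 and 13.19, were above the other 4 wild types, at 12.11 to 12.42. The dcKO samples, at 11.09 and 11.94, were below all 6 wild types, as was Sox11 cKO replicate 1 at 11.79. The share of all probes that lie this way was not counted. With either Sox11 cKO array left out, the dcKO value stayed at −0.88 and its adjusted p became 0.0273.

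S100a9 and S100a8 form calprotectin, the heterodimer that neutrophils carry in bulk and that keratinocytes make in wounded or inflamed skin. S100a9 read 0.39 and 1.09 in Sox4 cKO, −0.83 and −0.26 in Sox11 cKO, and −0.84 and 0.50 in dcKO. Its sign was shared by both arrays of each single knockout and differed between the dcKO arrays. The mean was 0.74 in Sox4 cKO, −0.55 in Sox11 cKO (−0.91 to −0.18, adjusted p = 0.695) and −0.17 in dcKO (−0.54 to 0.19, adjusted p = 0.795). Knockout levels spanned 7.16 to 8.67 and wild-type levels 7.10 to 8.72, so the 2 sets of 6 samples covered nearly the same range. S100a8 was at the edge of detection, with 1 of 6 knockout samples and 2 of 6 wild-type samples well above background. It read 0.69 and 0.26 in Sox4 cKO, −0.60 and −0.04 in Sox11 cKO, and −0.54 and 0.40 in dcKO. Its fold change in Sox4 cKO was 1.39 (confidence interval 0.998 to 1.95, adjusted p = 0.808), which is not a bound. As a bound it was at least 1.14-fold lower than in wild type in Sox11 cKO (adjusted p = 0.803). In dcKO it was lower by at least 1.03-fold (adjusted p = 0.954). Each of these values rested on 1 measured sample. The sign of S100a8 matched that of S100a9 on all 6 arrays.

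S100a10 and S100a11 are the annexin partners. S100a10 (p11) no longer binds calcium and holds Anxa2 in a membrane-bound tetramer. It read 0.08 and 0.01 in Sox4 cKO, −0.26 and 0.38 in Sox11 cKO, and −0.27 and −0.31 in dcKO, where the mean was −0.29 (−0.65 to 0.07, adjusted p = 0.606). The dcKO arrays were close together (SD 0.03, n = 2), but the wild-type levels of the gene ranged over 1.05, from 10.45 to 11.50. S100a11, a partner of Anxa1 and a substrate of transglutaminase in the cornified envelope, had the values nearest to 0. It read 0.15 and −0.15 in Sox4 cKO, 0.03 and 0.03 in Sox11 cKO, and −0.03 and −0.23 in dcKO. Its means of −0.00, 0.03 and −0.13 had intervals of −0.30 to 0.30, −0.27 to 0.33 and −0.43 to 0.17, which leave out a change of 1.5-fold in either direction.

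S100a14 and S100a16, which are typical of epithelia, and S100a13, which takes part in the release of growth factors that lack a signal peptide, changed little. S100a14 read −0.02 and 0.06 in Sox4 cKO, −0.04 and 0.31 in Sox11 cKO, and 0.10 and 0.36 in dcKO. S100a16 was above 0 on all 6 arrays, at 0.27 and 0.13 in Sox4 cKO, 0.01 and 0.17 in Sox11 cKO, and 0.23 and 0.36 in dcKO. Its dcKO mean of 0.29 (−0.01 to 0.59, adjusted p = 0.514) is the highest of the 10, and a second probe gave 0.29 as well (0.13 and 0.46). The S100a14 mean in dcKO was 0.23 (−0.07 to 0.52, adjusted p = 0.621). S100a13 read −0.06 and 0.39, −0.16 and 0.14, and 0.05 and 0.15 in the same order of genotypes, with means of 0.17, −0.01 and 0.10. For each of these 3 genes every dcKO array lay above 0, and no adjusted p was under 0.5.

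S100a1, best known as a regulator of calcium cycling in muscle, had the steadiest wild types, between 6.29 and 6.44. Both Sox4 cKO samples, at 6.80 and 7.03, lay above all 6 wild types, as did Sox11 cKO replicate 2 at 6.63. Both dcKO samples, at 6.16 and 6.22, lay below them, as did Sox11 cKO replicate 1 at 6.03. The share of all probes placed in these ways was not counted. The array values were 0.38 and 0.60 in Sox4 cKO, −0.40 and 0.25 in Sox11 cKO, and −0.13 and −0.17 in dcKO. The means were 0.49 (0.14 to 0.83, adjusted p = 0.787), −0.07 (−0.42 to 0.27) and −0.15 (−0.49 to 0.19, adjusted p = 0.815). A second, dimmer probe of S100a1 read 0.54 and −0.02 in Sox4 cKO, −1.03 and −0.11 in Sox11 cKO, and −0.01 and −0.03 in dcKO, so the probes of this gene disagree on Sox4 cKO replicate 2 and on both Sox11 cKO arrays. The mean of the second probe was 0.26 in Sox4 cKO and −0.57 in Sox11 cKO. S100a3, a cysteine-rich protein of the hair cuticle, was near background. It read 0.07 and 0.02 in Sox4 cKO, −0.09 and −0.69 in Sox11 cKO, and 0.05 and −0.19 in dcKO. Neither Sox11 cKO sample was well above background. There the gene was 1.31-fold lower than in wild type (log2 value −0.39, confidence interval −0.71 to −0.06, adjusted p = 0.701), which is not a bound. This value was carried by the wild type of replicate 2, at 6.26 against 5.60 in replicate 1.

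**Figure D2:**
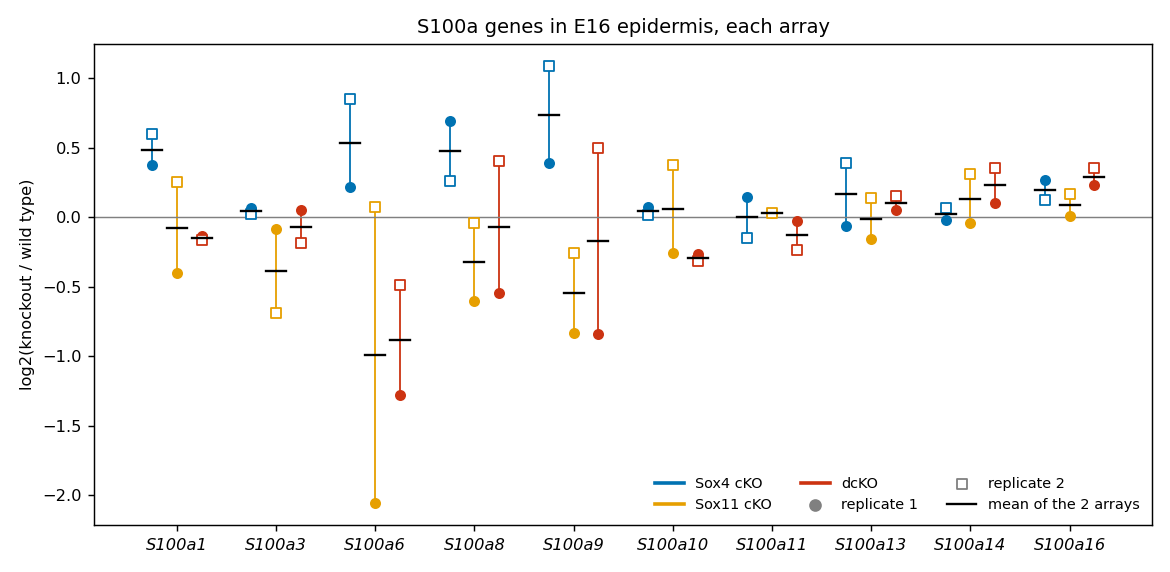
log2(knockout/wild type) of each S100a gene on each array (vertical axis), with filled circles for replicate 1, open squares for replicate 2 and a black bar for the mean of the 2 arrays. S100a6, S100a8 and S100a9 have the widest spread between arrays of 1 genotype (up to −2.06 and 0.07 for S100a6 in Sox11 cKO), and S100a11 and S100a16 the narrowest.

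On the whole array so few probes passed that 0 of 10 does not set the S100a genes apart from other probes. The number passing an adjusted p of 0.05 was 0 of 10 in Sox4 cKO, where 0.00539% of all probes passed, 0 of 10 in Sox11 cKO (0% of probes) and 0 of 10 in dcKO (0.83% of probes, 0.523% higher and 0.307% lower). None was called in dcKO by the stricter rule that also asks for an absolute log2 fold change over 1.5, which 0.207% of probes met. At an unadjusted p under 0.05 the counts in limma were 3 of 10 in Sox4 cKO (S100a1, S100a6 and S100a9, background 6.17%), 3 of 10 in Sox11 cKO (S100a3, S100a6 and S100a9, background 7.04%) and 1 of 10 in dcKO (S100a6, background 9.89%). In Sox4 cKO 7 of the 10 genes were higher on both arrays and none lower, against 23% and 22.9% of all probes. In Sox11 cKO 2 were higher and 3 lower on both arrays (22.7% each way among all probes), and in dcKO 3 were higher and 4 lower (24.8% and 25% of probes). The median log2 fold change of the 10 genes was 0.18, −0.04 and −0.10 in Sox4 cKO, Sox11 cKO and dcKO. Their median absolute value was 0.181, 0.111 and 0.161, against 0.109, 0.113 and 0.121 over all probes. The array medians of the 10 genes ran from −0.21 (Sox11 cKO replicate 1) to 0.20 (Sox4 cKO replicate 2). Because 7 of 10 in Sox4 cKO comes from 10 genes read in the same 2 pairs of samples, it is a description and not 10 separate observations.

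The genotypes were then compared with each other within the same fit, to ask whether deleting both genes gave other values than deleting either. Between dcKO and Sox4 cKO no S100a gene passed (0 of 10, background 0.145%), and 3 had an unadjusted p under 0.05 (background 6.11%). These were S100a6, lower in dcKO by a log2 difference of −1.41 (−2.17 to −0.66, adjusted p = 0.397), S100a9 with −0.91 (−1.43 to −0.40, adjusted p = 0.460) and S100a1 with −0.64 (−1.12 to −0.15, adjusted p = 0.716). Between dcKO and Sox11 cKO the count was again 0 of 10 (background 0.16%), and none had an unadjusted p under 0.05 (background 7.21%). The intervals of those 10 differences reached from −0.86 to 0.93, so differences of that size remain possible. Against the sum of the values of both single knockouts, dcKO departed in 0 of 10 genes (background 0.0862%), also at the unadjusted level (background 6.35%), with S100a1 furthest from it at −0.56 (−1.16 to 0.03, adjusted p = 0.799), where the second probe of the gene read 0.29. Sox4 cKO and Sox11 cKO differed in 0 of 10 genes (background 0.0018%). At the unadjusted level 4 genes were higher in Sox4 cKO (background 5.27%): S100a6 by 1.53 (0.77 to 2.28), S100a9 by 1.29 (0.77 to 1.80), S100a8 by 0.80 (0.12 to 1.48) and S100a1 by 0.56 (0.08 to 1.05), each with an adjusted p of 0.929. The last 3 of these comparisons use the Sox11 cKO arrays, whose wild types stood apart. Leaving out either of those arrays also brought S100a6 past the threshold between dcKO and Sox4 cKO, as 1 of 10 genes.

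**Figure D3:**
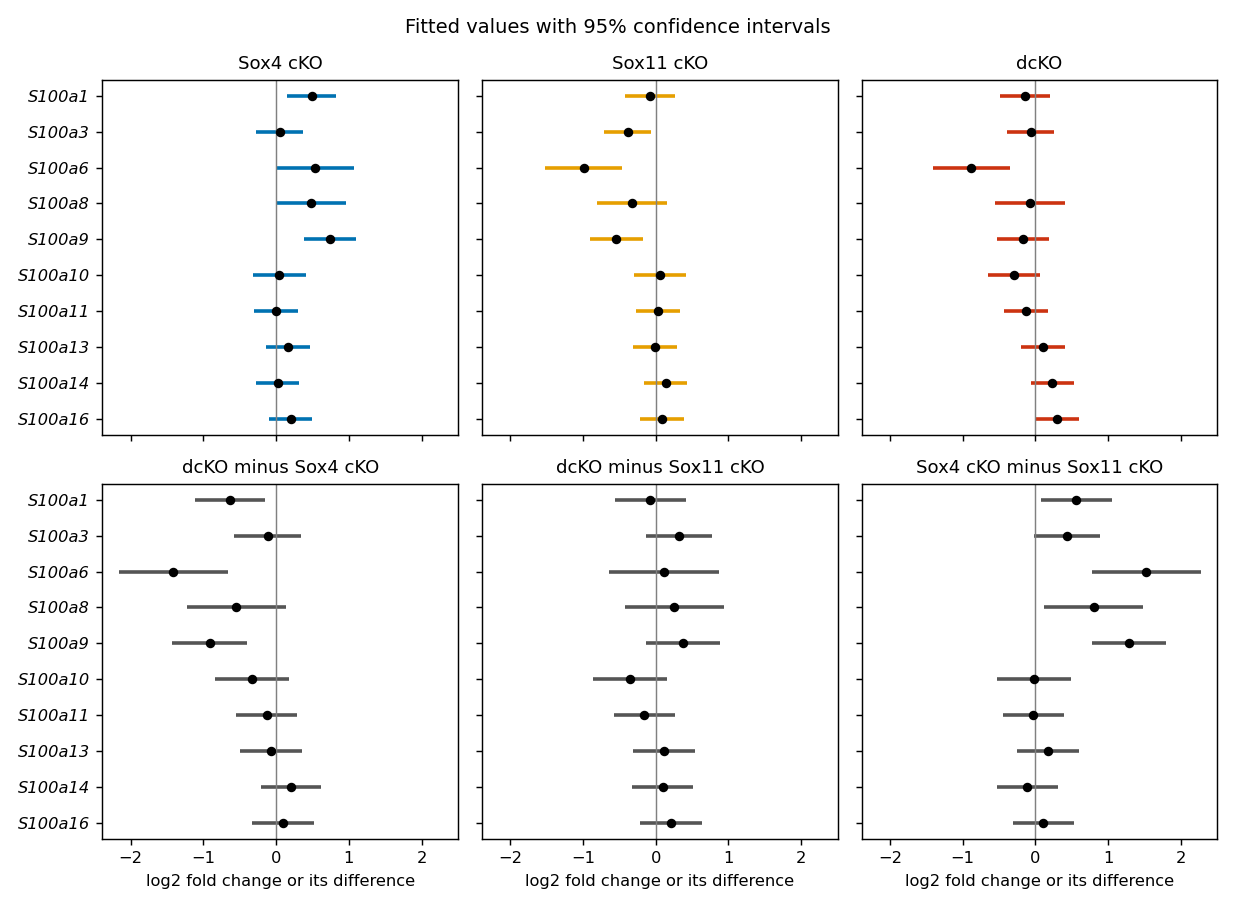
Log2 fold change of each S100a gene in the 3 genotypes (upper row) and the differences between genotypes (lower row), on the horizontal axis, with points for the limma estimate and bars for its 95% confidence interval, not adjusted for the number of genes. In dcKO only the S100a6 interval lies clear of 0 (−1.41 to −0.35), and no interval of dcKO minus Sox11 cKO does.

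Over the 6 arrays Pearson's r of the log2(knockout/wild type) of S100a6 was 0.95 with S100a1, 0.85 with S100a9, 0.78 with S100a8, 0.73 with S100a13 and 0.64 with S100a10, and between −0.14 and 0.33 with the other 4 S100a genes. These are descriptions over 6 points that share dyes and samples, and S100a8 was well above background in 3 of 12 channels. Among 10387 other genes well above background in every channel, the 3 whose 6 array values were nearest to those of S100a6 were Msln, Krt8 and Krt18, with root mean square differences of 0.36, 0.38 and 0.40 on the log2 scale. Msln, a surface glycoprotein of mesothelium, read 0.53 and 0.63 in Sox4 cKO, −1.50 and 0.31 in Sox11 cKO, and −1.70 and −0.78 in dcKO (mean in dcKO −1.24, adjusted p = 0.071). Krt8, a keratin of simple epithelia, read 0.48 and 0.36, −1.80 and −0.58, and −1.02 and −0.42 in the same order (mean in dcKO −0.72, adjusted p = 0.254).

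Krt8 and Krt18 are also in the list of periderm markers, the flat outer layer that covers the embryonic epidermis and is shed as the barrier forms. All 6 listed periderm keratins were well above background in all 12 channels, and 3 of 6 fell in dcKO, Krt4 to −1.50 (adjusted p = 0.00177), Krt19 to −1.40 (adjusted p = 0.0183) and Krt17 to −1.37 (adjusted p = 0.005). None passed in the single knockouts. The median of the list on each array was 0.66 and 0.41 in Sox4 cKO, −1.51 and −0.58 in Sox11 cKO, and −1.10 and −1.03 in dcKO, with the same signs as S100a6 on 5 of 6 arrays, Sox11 cKO replicate 2 being the exception. The summed level of the 6 keratins was 11.83 and 11.89 in the dcKO samples against 12.97 and 13.08 in their wild types. It was 12.98 and 13.39 in Sox11 cKO against 13.87 and 13.81, and 12.85 and 13.03 in Sox4 cKO against 12.92 and 13.19. The wild types with the highest S100a6, those of the Sox11 cKO arrays, also had the highest Krt4 (9.77 and 10.76 against 6.62 to 7.58) and Krt19 (12.22 and 12.70 against 9.91 to 10.95). Krt17 did not share the pattern, with −0.90 and −0.96 in Sox4 cKO, −0.01 and 0.04 in Sox11 cKO, and −1.08 and −1.65 in dcKO. Krt6a read 0.83 and 0.25, −1.02 and 0.28, and −1.12 and −0.81 in the same order. The part of periderm cells in the S100a6 values was not tested, and in whole epidermis fewer cells of a type and less RNA per cell cannot be told apart.

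**Figure D4:**
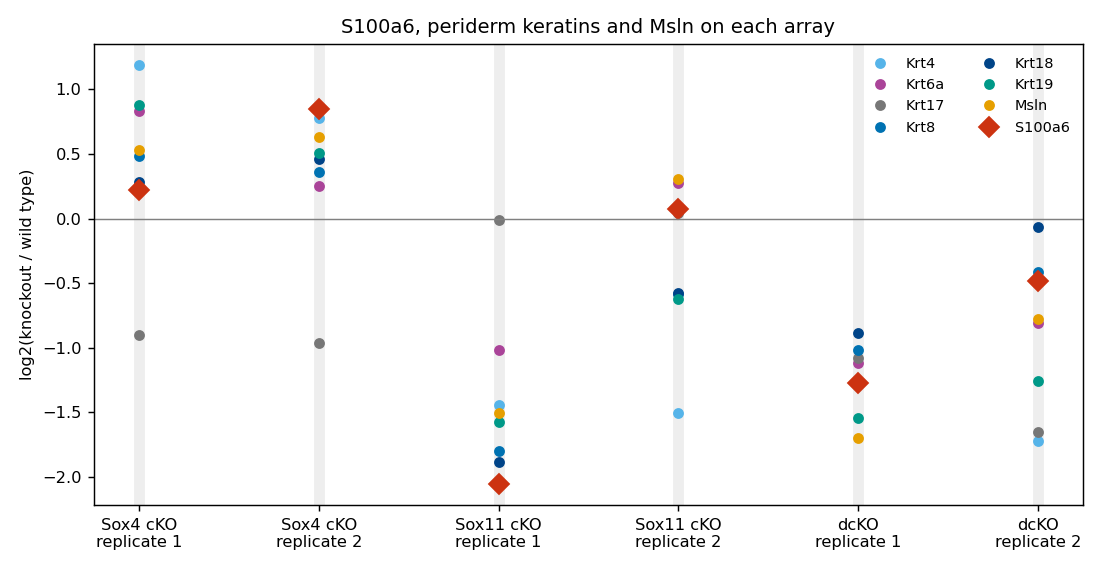
log2(knockout/wild type) of S100a6 (red diamonds), Msln and the 6 listed periderm keratins (circles, vertical axis) on each of the 6 arrays (horizontal axis). S100a6 is above 0 with all of them but Krt17 on both Sox4 cKO arrays and below 0 with all of them on Sox11 cKO replicate 1 and both dcKO arrays, while on Sox11 cKO replicate 2 it reads 0.07, with Msln (0.31), Krt6a (0.28) and Krt17 (0.04) above 0 and the other keratins below.

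For S100a8 and S100a9, the levels of myeloid cell markers stand beside the values. Of 13 listed genes of neutrophils and other myeloid cells 12 were named on the array. Only 4 were well above background in all 12 channels (Csf3r, Itgam, Csf1r and Cd68), and 5 in none (Ngp, Ltf, Ptprc, Adgre1 and Lyz2), the pan-leukocyte marker Ptprc among them. None of the 12 passed in any genotype. The list's array medians lay between −0.20 and 0.17, and its summed level ran from 13.60 to 14.19 in knockouts and 13.83 to 14.29 in wild types. Of 5 receptors for secreted S100 proteins none passed: Ager, Tlr4 and Cd69 were not well above background in any channel, Bsg stood at 0.03 in dcKO and Cd36 at −0.51 (adjusted p = 0.299).

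The proteins that S100a10, S100a11 and S100a6 bind were read as a list of 10 annexins and other partners. Of these 1 rose in dcKO, Anxa11, at 1.43 and 0.92 with a mean of 1.17 (adjusted p = 0.00952). Anxa11 binds calcyclin, the S100a6 protein, and its sign in dcKO was opposite to that of S100a6. Anxa2, the partner of S100a10, stood at −0.32 (adjusted p = 0.464) and Anxa1, the partner of S100a11, at −0.34 (adjusted p = 0.591). The other partners stood between −0.11 and 0.22 and none passed, and in the single knockouts 0 of 10 passed. Of 3 transglutaminases, the enzymes that crosslink S100 proteins into the envelope, none passed, with Tgm3 at 0.62 (adjusted p = 0.179) and Tgm1 at 0.20 (adjusted p = 0.662) in dcKO. Of 9 other genes with an S100 name 0 passed and 4 were not well above background anywhere. S100a4 was the furthest from 0 among those well above background in all 12 channels, at 0.27 in dcKO (adjusted p = 0.666), followed by S100pbp at 0.23 (adjusted p = 0.650).

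The chromosomal order separates the S100a genes from the genes that rose in dcKO. Along the complex and its flanks, 72 genes had a named probe. From the first edge came S100a1, S100a13, S100a14, S100a16, S100a3, S100a6, S100a8 and S100a9, with other S100a genes between them, then 45 envelope and other genes, then the fused S100 genes, and at the far edge S100a11 and S100a10. In dcKO the median of the 45 genes was 0.95, with a range of −1.52 to 4.63, and 21 rose and 1 fell (Prr9, −1.52, adjusted p = 0.0051). The 10 S100a genes that flank them had a median of −0.10 and a range of −0.88 to 0.29. Of the 5 other S100a genes of the complex 0 passed (median 0.02), and 0 of 6 other genes in or beside the complex (median −0.01). Over all probes 0.523% rose and 0.307% fell in dcKO. In Sox4 cKO and Sox11 cKO no gene of the region passed. Over all probes 0.00539% and 0% passed there, so this says little about the region. On the Sox11 cKO arrays a change of Lce1b or Kprp could not be judged, since neither was well above background in any of the 4 channels.

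The fused S100 genes carry an S100 domain at the start of a long repeat protein. Of the 6 named here 2 rose in dcKO. Flg2 (filaggrin 2), which takes part in keratin packing, read 3.71 and 2.08, with a mean of 2.90 (adjusted p = 0.0101), and 1 of its 2 wild types was well above background. Rptn (repetin) read 1.03 and 0.68 and was at least 1.59-fold higher (adjusted p = 0.0444), with neither wild type well above background. Hrnr stood at 0.68 (adjusted p = 0.416) and Tchh at −0.41 (adjusted p = 0.298). Among 20 listed cornified envelope genes of the region 8 rose and none fell in dcKO, led by Lce1b at 4.63, 2310050C09Rik at 4.31, Lce1m at 4.18 and Lce1c at 3.30. Of 13 genes between and beside the S100a genes none passed, with Slc27a3 at 0.44 (adjusted p = 0.295) and Them5 at 0.32 (adjusted p = 0.483).

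**Figure D5:**
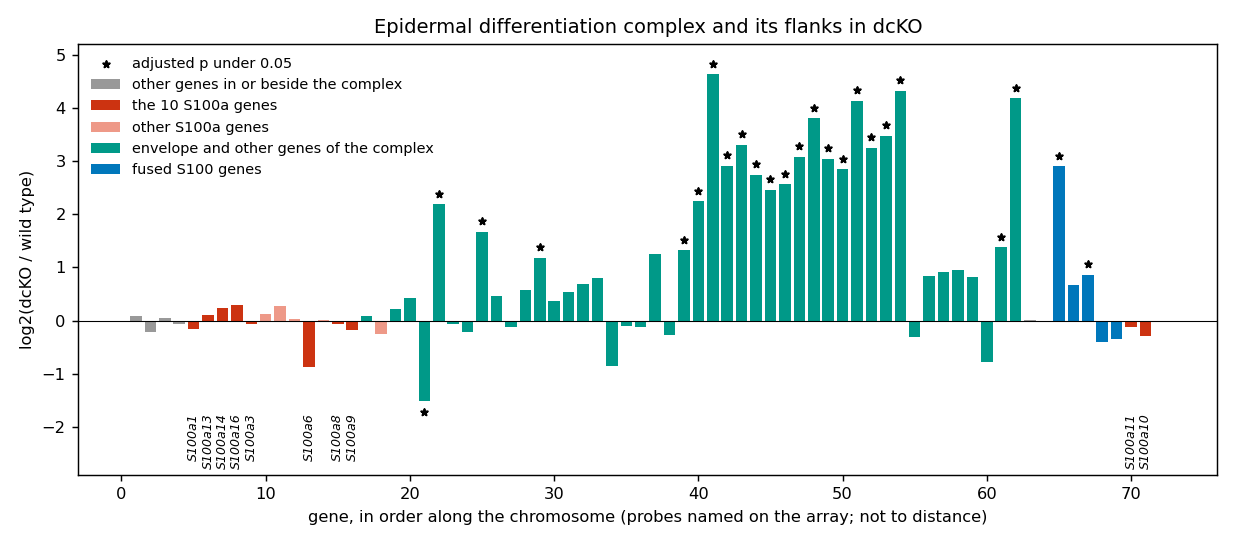
Log2 fold change in dcKO (vertical axis) of 72 genes in their order along the epidermal differentiation complex and its flanks (horizontal axis, not to distance), with the 10 S100a genes in red and named, and stars for an adjusted p under 0.05. The S100a genes on both edges lie between −0.88 and 0.29 without a star, while between them 21 of the envelope and other genes of the complex, rising by up to 4.63, and 2 fused S100 genes rose, and 1 envelope-region gene fell.

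Other cell types could also move with these values, and their marker lists were read in the same way. No gene of the epidermis (8 genes), Langerhans and T cell (3), dermal fibroblast (8), skeletal muscle (8), blood vessel (5), melanocyte and Schwann cell (7), red blood cell (6), hair follicle bud (7) or proliferation (6) lists passed in any genotype. The fibroblast list had array medians of −2.23 and 0.61 in Sox4 cKO, 0.80 and −0.45 in Sox11 cKO, and −1.20 and −1.30 in dcKO, and its summed level ran from 12.84 to 13.60 in knockouts and 12.74 to 14.45 in wild types. Its dcKO medians have the sign of S100a6, its Sox4 cKO replicate 2 median has it too, and the signs are opposite on the other 3 arrays. The red blood cell medians were 0.36, −0.33, 0.47, 0.69, −0.32 and 1.16 on the same 6 arrays. In the epidermis list Krt1 and Krt10, keratins of the first suprabasal layers, stood highest in dcKO, at 0.64 (adjusted p = 0.489) and 0.63 (adjusted p = 0.468). Among marker genes well above background in all 12 channels, those furthest from 0 in dcKO were Col3a1 (−2.12) and Col1a2 (−2.03) of fibroblasts and Bmp4 (−0.65, adjusted p = 0.0668) and Lhx2 (−0.51) of follicle buds. For the other lists they were Cd68 (0.21) and Csf3r (−0.17) of myeloid cells, Epcam (−0.34) and Cd3e (0.30), Mylpf (0.22), Kdr (0.17), Pmel (−0.37) and Dct (−0.22), Alas2 (0.52) and Hba-a1 (0.49), and Mcm2 (−0.25) and Pcna (−0.21). The part of these cell types in the S100a values was not tested.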

How the data were processed

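Epidermal RNA of 3 knockouts and their wild-type littermates was hybridised to 6 two-colour Agilent SurePrint G3 arrays, the knockout in Cy5 on replicate 1 and in Cy3 on replicate 2. Groups, replicates and dyes come from the labels, which call the replicates biological. The authors scanned the arrays with Agilent Feature Extraction 11.0.1.1, and the deposited intensity values are unnormalized median signals with local background. The deposited log10 ratio of red over green is Feature Extraction's own. The authors' series table gives log2 ratios of knockout over wild type, made with limma 3.5 per the submitters' processing notes (normexp with an offset of 16 and loess, per the methods). It matched the values computed here (slope 1.00, r of 0.9999 or more on each array, no S100a value apart by over 0.0114), so its direction and scale are settled.

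In R 4.3.3 with limma 3.58.1, median signals were corrected by normexp (offset 16) and normalized by loess within arrays, and spots of a probe were averaged, leaving 55681 probes. One linear model over all 6 arrays had a coefficient per genotype and a dye coefficient, which is also the replicate block, with moderation by eBayes (prior degrees of freedom 6.63, residual 2) and Benjamini-Hochberg adjustment over all probes. Tests were two-sided, with a threshold of 0.05. The study's methods remove the colour effect with ComBat, which is an alternative here. The replicate numbers paired the arrays: deviations from the genotype means correlated at 0.258, 0.306 and 0.328 for the 3 pairs of genotypes, and the pairing comes from the labels, where it coincides with dye. The fit was tested on simulated data with known changes. All arrays were on 1 slide and in 1 scan. The share of spots above background was 38.9% to 43.6% per channel.

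Probes were named through RefSeq symbols of GRCm38.p6 (28325 of 55681 named). The probe of highest mean intensity stands for a gene. Named are all 10 S100a genes, Sox4 and Sox11, from each list the genes passing in any genotype (at most 4) or otherwise the 2 with the largest dcKO value among those well above background, and the 3 genes nearest to the S100a gene with the largest dcKO value. Names outside that rule (Anxa1, Anxa2, Bsg, Cd36, Hrnr, Tchh, Krt6a, Prr9 and markers given by level) were chosen after their values were seen. A bound ("at least N-fold") sets the bright group's mean against the detection floor of each array (the dimmest probe still well above background, or the dim probe's own signal where higher), on channel values after loess and Aquantile, with no balanced correction for dye. Where the dim probe's own signal was the higher on both arrays of a genotype, the bound equals the fold change, which is given instead. The S100a genes and all lists were chosen with earlier results of these data known. The alternatives tried are in the closing section. A probe without a name here, such as any for Flg and Ly6g, was not used.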

Additional observations from a re-analysis of the deposited data

How the results depend on the processing

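With 2 arrays per genotype a difference under about the width of the intervals given could not be called, and S100a3 and S100a8 lie at the edge of detection. In the 6 comparisons rerun (each genotype, dcKO against each single knockout and against their sum) the number of S100a genes passing was 0 under every alternative, with an exception in the runs that leave out 1 array: from 0 to 1 gene passed in dcKO, and from 0 to 1 between dcKO and Sox4 cKO. The 1 gene was S100a6 without Sox11 cKO replicate 1 or replicate 2 (dcKO −0.88, adjusted p = 0.0273). A genotype left with 1 array is assumed to vary like the others. Without the replicate block the counts were also 0, and S100a6 in dcKO kept −0.88 at an adjusted p of 0.841. Across all alternatives that adjusted p ran from 0.0273 to 0.841, and with 1 array left out the value ran from −1.18 to −0.59.

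Over all probes the number passing in dcKO was 462, and it was 1376 with an offset of 50, 1098 without background subtraction, 3632 with ComBat, 270 without the replicate block and 0 with the Feature Extraction log ratio. In Sox4 cKO it was 3, and 51, 31, 25, 3 and 0 under the same settings. In Sox11 cKO it was 0, and 6, 16, 2, 0 and 0.

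Values near 0 changed sign. With median centring in place of loess, S100a11 read 0.19 in Sox4 cKO, and in Sox11 cKO S100a10 read −0.042, S100a11 −0.079 and S100a16 −0.018, while S100a8 in dcKO read 0.00053. With the Feature Extraction log ratio S100a11 in Sox4 cKO read 0.019 and S100a3 in dcKO 0.00075. Leaving out 1 array at a time turned the sign of some values. In Sox4 cKO these ran from −0.14 to 0.23 for S100a3, −0.11 to 1.07 for S100a8, −0.13 to 0.22 for S100a10, −0.098 to 0.095 for S100a11 and −0.086 to 0.13 for S100a14. In Sox11 cKO they ran from −0.36 to 0.21 for S100a1, −0.28 to 0.41 for S100a10, −0.094 to 0.15 for S100a11 and −0.018 to 1.4e-05 for S100a13. In dcKO they ran from −0.38 to 0.085 for S100a1, −0.51 to 0.37 for S100a8, −0.52 to 0.18 for S100a9 and −0.037 to 0.24 for S100a13. The cause of these changes was not tested. S100a6 kept its sign under all alternatives in every genotype. So did S100a1, S100a9, S100a13 and S100a16 in Sox4 cKO, and S100a3, S100a8, S100a9 and S100a14 in Sox11 cKO. In dcKO the same held for S100a10, S100a11, S100a14 and S100a16.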
